A study of Mus musculus with 12 samples.

Results

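Of the 2183 windows in the list of Rev-Erba binding sites of brown adipose tissue at 29 °C, 513 overlapped no window of the 4 °C list on the same chromosome by 1 bp or more. These windows, listed at 29 °C only, made up 23.5% of the 29 °C list (exact 95% binomial interval 21.7 to 25.3), and the 2 lists together held 13410 windows of 200 bp. They were split by the read density of the HA-RevErba pull-down inside the same window, which at 4 °C was below that at 29 °C in 229 windows (called lower here) and not below in 284 (called not lower). Absence from the 4 °C list therefore did not mean absence of signal at 4 °C, and the name "29 °C only" describes the lists and not the binding. The windows were chosen by the 2 peak lists, which rest on the HA-RevErba and WT values of each temperature, and split on the HA-RevErba values. All of these values are therefore given below as a description, without tests.

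Chromatin immunoprecipitation and sequencing (ChIP-seq) was done on C57BL/6 mice, with HA magnetic beads, after 1 week at 29 °C (thermoneutrality) or at 4 °C (chronic cold). HA-RevErba mice, which carry an HA-tagged Rev-Erba, gave 4 libraries at each temperature, and wild-type (WT) mice without the tag gave 2 at each temperature as the background of the pull-down. Neither the age of the mice, nor the promoter that drives the tagged protein, nor whether a library is 1 animal is stated in the labels. Libraries held 27.0 to 37.3 M (mega) aligned reads, and 2.54 to 7.37% of reads did not align.

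All binding values are of pools, 1 pool per genotype and temperature, so there is no replicate error and no test between temperatures. The unit is FPKM, here reads per kb of window per M reads of the pool and not a level of expression. Pool sizes were worked out from the FPKM of 1 read. They were 63.8 M reads for HA-RevErba at 4 °C, 60.8 M for HA-RevErba at 29 °C, 27.1 M for WT at 4 °C and 25.1 M for WT at 29 °C. In the same order these are 49.8, 49.2, 43.9 and 39.5% of the aligned reads of the libraries. The step that left out the rest is not stated. Intervals of ratios are exact 95% intervals from the recovered reads. They cover counting error only and leave out the spread between animals. Coordinates are those of the deposited lists on mouse build mm9, and the gene of a window is its annotated gene there, which can lie far away. A binding map holds no expression, so the labelled tissue was not checked against its marker genes.

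Rev-Erba, encoded by Nr1d1, is a nuclear receptor that represses transcription and whose abundance follows the circadian clock. It binds DNA as a monomer at a half-site flanked by an A/T-rich stretch, or as a dimer at paired half-sites, and it acts through corepressor complexes that hold the histone deacetylase HDAC3. It can also be brought to chromatin by other transcription factors without contacting its own motif. In brown fat it is known as a repressor of the thermogenic gene Ucp1 and of lipid synthesis genes.

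Sequence can be shown for members at promoters, where the start site of the gene fixes the position. The 3 promoters below are those of members that were annotated to a promoter, belonged to the 8 such windows with the most HA-RevErba signal at 29 °C or to the gene lists used below, had their centre from 250 bases before to 50 after the start site, and had 1 entry in the RefSeq promoter table (build GRCm38.p6, 250 bases ending just before the start site, plus strand, 5′ to 3′). Capitals mark CCAAT, or ATTGG where it lies on the other strand. Both strands were searched for the half-site AGGTCA and its longer form NTAGGTCA, the E-box CACGTG, the CCAAT box, the C/EBP palindrome TTGCGCAA, the palindrome of nuclear factor I, and the paired or flanked half-sites RORE, RevDR2 and DR1. No capital appears in the first promoter, which holds none of them. The 3 promoters are shown because the windows at them fell on both sides of the split. The Depp1 (8430408G22Rik in the files) and Gbp7 windows had more signal at 4 °C, and the Efnb1 window slightly less. The Gbp7 and Efnb1 windows of 200 bp were centred at -86 and -198 bases from the start site. By these distances the marked CCAAT boxes lie outside both windows, and the Efnb1 window reaches beyond the printed stretch.
Depp1, chr6:116650434-116650683: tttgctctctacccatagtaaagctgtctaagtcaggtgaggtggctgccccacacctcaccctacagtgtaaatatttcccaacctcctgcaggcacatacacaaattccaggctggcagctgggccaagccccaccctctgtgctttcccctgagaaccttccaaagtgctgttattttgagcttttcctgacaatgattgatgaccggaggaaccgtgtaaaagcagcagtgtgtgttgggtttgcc
Gbp7, chr3:142530086-142530335: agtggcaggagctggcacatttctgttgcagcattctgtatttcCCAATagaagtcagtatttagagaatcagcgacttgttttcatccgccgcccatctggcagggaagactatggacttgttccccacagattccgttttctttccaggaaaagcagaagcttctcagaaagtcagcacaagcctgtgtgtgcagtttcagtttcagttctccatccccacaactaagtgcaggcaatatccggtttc
Efnb1, chrX:99135811-99136060: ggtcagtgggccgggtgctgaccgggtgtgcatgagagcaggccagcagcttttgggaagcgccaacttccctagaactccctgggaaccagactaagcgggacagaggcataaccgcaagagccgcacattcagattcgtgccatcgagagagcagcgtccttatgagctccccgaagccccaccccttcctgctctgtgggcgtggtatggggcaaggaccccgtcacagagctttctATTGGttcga

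Across all 513 windows, 10 had their centre in that span around a start site, and 6 of their genes had 1 promoter entry. The half-site AGGTCA was in 2 of the 6 (33.3%, exact 95% interval 4.33 to 77.7), against 14.0% of all 32851 promoters of the same length. The longer form NTAGGTCA, which contains that half-site, was in 0 of 6, and 2.22% of all promoters held it. The CCAAT box was in 2 of 6 and in 33.9% of all promoters, and the E-box CACGTG in 1 of 6 and 6.02%. Among windows shared by both lists, 10 promoters could be read and 6 held AGGTCA, 5 of them in the longer form. With 6 promoters the interval spans most of the scale, so no difference in motif content was detectable.

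The windows listed at 29 °C only were weak sites of their list. The 2183 windows were ranked by HA-RevErba signal at 29 °C and divided into 5 bins of equal size. In the strongest bin 2.97% were without a 4 °C window, in the next 10.3%, 23.1% and 33.7%, and in the weakest 47.4%. Their median at 29 °C was 4.37 FPKM (10th to 90th percentile 3.55 to 6.59), or 53 reads, against 6.34 FPKM in the 1670 windows shared with the 4 °C list. From 41.1 to 45.6% of members were lower in each of the 4 weaker bins, while 12 of the 13 members in the strongest bin were lower. Over all windows of the 29 °C list, 15.8% of the strongest bin and 14.7 to 22.4% of the others were lower. Both the bins and the split use the 29 °C value, so these counts are a description.

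At 29 °C the lower and the not lower windows had the same median densities but a different spread of WT values. At 4 °C their medians were apart in both genotypes. The lower windows had median densities of 4.37 FPKM for HA-RevErba and 0.61 for WT at 29 °C, then 2.99 and 0.93 at 4 °C. The not lower windows had the same 29 °C medians, 4.37 and 0.61 FPKM, and had 7.07 and 2.41 at 4 °C. The WT median of 0.61 FPKM is 3 reads and hides a difference between the classes. WT reads at 29 °C were 3 or fewer in 70.3% of lower and 52.5% of not lower windows, and in 39.0% of the 29 °C list. Where WT had a read, the median fold over WT at 29 °C was 8.87 in lower and 6.46 in not lower windows. Shared windows had 6.34 and 1.01 FPKM at 29 °C and 12.01 and 1.48 at 4 °C. The WT background at 4 °C was thus higher in the not lower windows than in shared ones, while their HA-RevErba density was lower.

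**Figure D1:**
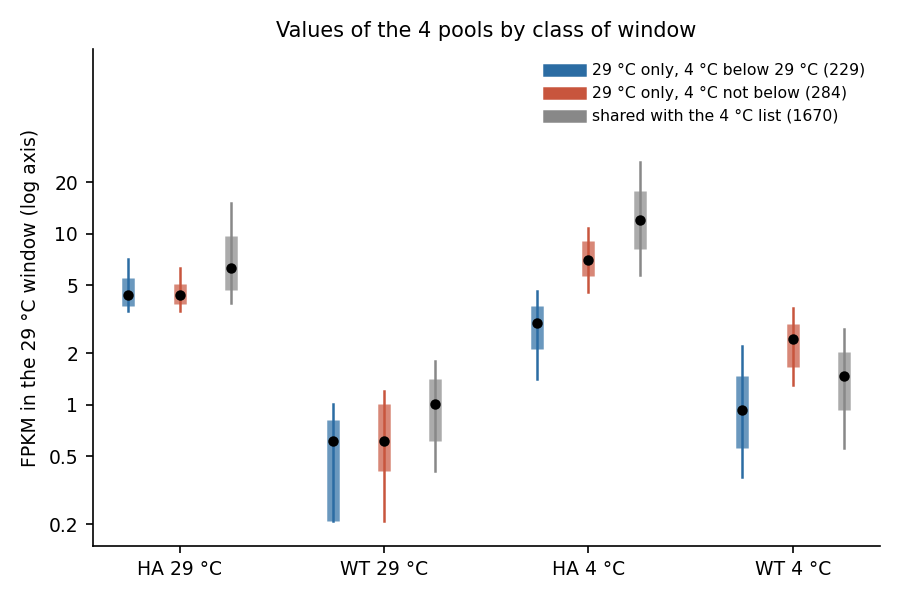
FPKM in windows of the 29 °C list (log axis) for the HA-RevErba (HA) and WT pools at each temperature, by class of window. Points are medians, thick bars the middle 50% and thin bars the 10th to 90th percentiles of windows. At 29 °C both classes of members share medians of 4.37 (HA) and 0.61 (WT). The middle 50% of WT there is 0.21 to 0.81 in the lower and 0.41 to 1.01 in the not lower class. At 4 °C the not lower class has medians of 7.07 and 2.41 against 2.99 and 0.93.

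Per pool read, the 4 °C to 29 °C ratio of HA-RevErba had a median of 1.09 over the members (10th to 90th percentile 0.408 to 2.11), 1.77 in shared windows and 1.64 in the full 29 °C list. With the pools scaled so that WT reads were equal over shared windows, the members' median was 0.731 and 69.4% of them were lower, so the direction of the median and the size of both classes depend on the scaling. The 229 lower members were 44.6% of members (40.3 to 49.1), where 18.2% of all 29 °C windows had a lower 4 °C value. The 284 not lower ones compare with 81.8% of the list. A counting interval below 1 was found in 114 members, or 22.2%, against 7.74% of all windows of the list. An interval above 1 was found in 162 members, or 31.6%, against 66.8% of the list. An interval that included 1 was found in 237 members, or 46.2%, against 25.5% of the list. Ratios of 0.5 or less occurred in 73 members, or 14.2%, against 3.99% of the list. Ratios of 1.5 or more occurred in 156 members, or 30.4%, against 58.5% of the list. Ratios of 2 or more occurred in 60 members, or 11.7%, against 31.5% of the list. Since the rule for members used these values, nothing is read from these shares. Among members close to the dividing ratio, Adamts16 had 3.54 FPKM at 4 °C and 3.55 at 29 °C and counted as lower. Thumpd3, with 5.11 at both temperatures, and Selenop, with 3.30 at both, counted as not lower.

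The strongest of all members lay in intron 7 of 27 of Mthfd1l (chromosome 10, 6343941 to 6344141), whose product is the formate-producing synthetase of mitochondrial one-carbon metabolism. This window held 211 HA-RevErba reads at 29 °C and 48 at 4 °C, against 2 WT reads at each temperature. In FPKM that is 17.4 and 3.77 for HA-RevErba and 0.41 and 0.38 for WT, a ratio of 0.217 (0.155 to 0.298). HA-RevErba was lower at 4 °C beyond counting error at a flat background, and the 4 °C values still met both limits of the 4 °C list, which are given below.

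The smallest ratio was in a window annotated to Umps, the gene for uridine monophosphate synthase, an enzyme of pyrimidine synthesis. It had 9.96 FPKM for HA-RevErba and 0.81 for WT at 29 °C, and 1.03 and 0.38 at 4 °C. The ratio was 0.102 (0.0530 to 0.182). At 4 °C the counting interval of HA-RevErba over WT, 0.626 to 25.2, included 1, so signal over background was not detectable there. Rhob, which encodes a small GTPase, followed with 3.96 FPKM at 29 °C and 0.56 at 4 °C, near the WT values of 0.41 and 0.38. Cpa1, a carboxypeptidase gene, had 5.19 and 0.79 FPKM with WT at 0.61 and 0.56. An intronic window of Cdca2, a cell-division gene, had 5.77 and 1.03 FPKM with WT at 0.41 and 0.56. In all 4 windows HA-RevErba at 4 °C was within 0.65 FPKM of WT.

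At the myosin phosphatase gene Ppp1r12a (intron 2 of 25), a lower HA-RevErba value at 4 °C came together with a higher WT value. HA-RevErba was 12.8 FPKM at 29 °C and 3.46 at 4 °C, and WT was 0.21 and 2.04. The ratio of HA-RevErba was 0.269 (0.188 to 0.378). Over WT the window stood 64.4 times higher at 29 °C, where WT rested on 1 read, and 1.70 times (0.865 to 3.65) at 4 °C.

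Among the other strong lower windows, values at 4 °C ranged from near WT to well above it. A window beside 6430573F11Rik had 11.4 FPKM at 29 °C and 2.68 at 4 °C, with 0.61 and 1.48 in WT, and its excess over WT at 4 °C had an interval of 0.822 to 4.52. Ntrk2, which encodes the neurotrophin receptor TrkB, had 11.4 FPKM at 29 °C and 6.20 at 4 °C, with 0.61 and 1.48 in WT. Tbc1d7, a subunit gene of the TSC complex that restrains mTORC1, had 10.4 and 6.83 FPKM against 0.61 and 0.38. A window of both lists centred 425 bp from the Tbc1d7 member went the other way, with 6.18 FPKM at 29 °C and 16.8 at 4 °C. At Klhdc7a the values, 10.4 and 10.2 FPKM, differed by less than counting error, with a ratio of 0.984 (0.764 to 1.27). The ratios at Ntrk2, 0.546 (0.409 to 0.725), and Tbc1d7, 0.658 (0.495 to 0.872), had intervals below 1.

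Across the lower class HA-RevErba still exceeded WT at 4 °C in 222 of 229 windows, and in 153 the counting interval of that excess lay above 1. An interval above 1 at 4 °C was found in 429 of all 513 members, against 96.2% of the 29 °C list. In 7 members HA-RevErba at 4 °C did not exceed WT. The highest of these at 29 °C was a window beside Arhgap29, a RhoA-inactivating protein gene, with 4.53 FPKM against 0.41 in WT at 29 °C and 1.42 against 2.41 at 4 °C. That reversal rests on 18 HA-RevErba and 13 WT reads from pools of different size.

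In the not lower class, the 3 windows given here are among the 8 with the most signal at 29 °C. The first, beside Slmo2, had 11.0 FPKM for HA-RevErba and 1.80 for WT at 29 °C, and 12.2 and 3.70 at 4 °C. Dot1l, the gene of the histone H3 lysine methyltransferase of transcribed chromatin, had 8.48 and 1.80 FPKM at 29 °C and 14.2 and 3.70 at 4 °C in its intron 1 of 27. A second Dot1l window, in intron 3, was lower, its 5.11 FPKM at 29 °C facing 2.05 at 4 °C (0.400, 0.243 to 0.642). A 4 °C window centred 298 bp from this second one went the other way, with 2.48 FPKM at 29 °C and 5.66 at 4 °C. At Sgf29, which encodes a subunit of the SAGA coactivator, the values were 8.56 and 1.60 FPKM, then 13.1 and 3.33. HA-RevErba and WT were both higher at 4 °C in the Slmo2, Sgf29 and first Dot1l windows, and WT by the larger factor. The ratio of HA-RevErba at Slmo2, 1.11 (0.876 to 1.41), had an interval that included 1. All 3 windows missed the limit of the 4 °C list on the fold over WT, given below. The larger factor in WT therefore follows from the split and the limits of the lists.

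The largest ratios were near 3. Sult1c1 on an unplaced part of chromosome 17 led with 3.22 (2.25 to 4.70), from 3.30 FPKM at 29 °C and 10.6 at 4 °C, with WT at 0.21 and 2.41. Pim3, a serine/threonine kinase gene, had 4.12 and 12.5 FPKM with WT at 1.01 and 3.51. Rgs3, a regulator of G-protein signalling, had 3.63 and 10.8 FPKM with WT at 0.21 and 2.96. These windows carried more HA-RevErba reads at 4 °C than most windows listed at 4 °C only, whose median was 6.60 FPKM.

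The limits of the 4 °C list, as its own windows show them, were 3 FPKM over WT and a fold of 4 over WT within rounding (lowest fold 3.99). Of the 513 members, 220 (42.9%, 38.6 to 47.3) missed the fold alone, 55 (10.7%) the difference alone and 174 (33.9%) both. Over the full 29 °C list these shares were 12.4%, 3.02% and 8.47%. The other 64 reached both limits, against 76.1% of all windows of the 29 °C list. Since the 29 °C list has nearly the same limits at 29 °C, low WT values there are part of how its windows were selected.

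How the classes split over the limits follows from the values that defined them, since every member had at least 3.01 FPKM over WT at 29 °C. Among the not lower windows, 202 of 284 missed the fold alone. Among the lower windows, 143 of 229 missed both and 53 the difference alone. The 220 windows that missed the fold alone had medians of 7.38 FPKM for HA-RevErba and 2.41 for WT at 4 °C, a fold of 3.13, and 4.66 and 0.81 at 29 °C. In 192 of the not lower windows the difference over WT was larger at 4 °C than at 29 °C while the fold over WT was smaller. These are 37.4% of all members, close to the 34.7% of the 29 °C list. By the authors' difference columns, HA-RevErba minus WT was lower at 4 °C in 312 of 513 members (60.8%), against 22.4% of the 29 °C list.

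**Figure D2:**
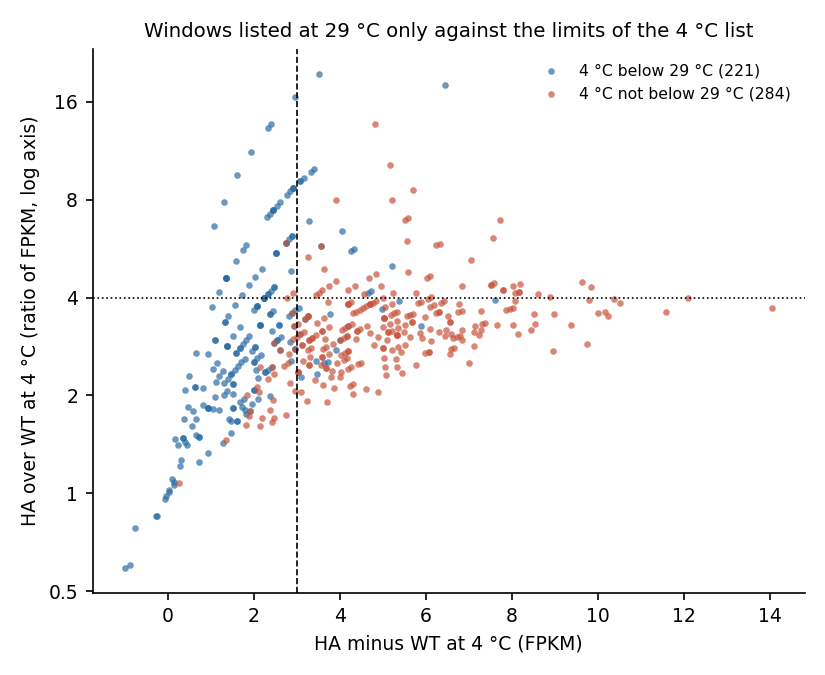
HA-RevErba over WT (ratio, log axis) against HA-RevErba minus WT (FPKM) at 4 °C for the 505 windows listed at 29 °C only that had a WT read at 4 °C; the other 8 have no ratio. Dashed and dotted lines mark the smallest difference and the smallest fold in the 4 °C list, and most not lower windows lie right of the first line and under the second, 202 of 284 by count.

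The WT values of members are a description as well. A not lower window can hardly miss a limit of the 4 °C list except by a higher WT value at 4 °C than at 29 °C. Of the 284 not lower windows, 49 reached both limits and are not covered by this. For the others, a difference between the classes in WT is built into the rule. WT density was higher at 4 °C than at 29 °C in 455 of 513 members (88.7%): in 176 of 229 lower windows (76.9%) and in 279 of 284 not lower windows (98.2%). In shared windows of the 29 °C list the share was 72.2%, and in the full list 76.1%. Summed over members, the WT pools held 5025 reads at 4 °C and 1619 at 29 °C, which per pool read is a factor of 2.87. The same factor was 1.49 over shared windows of the 29 °C list and 1.02 over the full 4 °C list. Each WT pool combines 2 libraries, and the part that either library or the selection on low WT reads at 29 °C has in this factor was not tested.

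Some windows are given because their WT values at 4 °C were the highest among members, so those values are a description. Calu, which encodes the calcium-binding endoplasmic reticulum protein calumenin, had a promoter window (chromosome 6, 29297731 to 29297931) with 19.2 FPKM for HA-RevErba and 5.17 for WT at 4 °C, and 7.74 and 1.60 at 29 °C. It held the highest HA-RevErba value at 4 °C of all members, with a ratio of 2.49 (1.95 to 3.19), and missed the 4 °C list at a fold of 3.72. Noct, the gene of the rhythmic protein nocturnin, had 14.1 and 5.17 FPKM at 4 °C and 5.93 and 0.61 at 29 °C in a window 30.2 kb upstream. Gpd2, the mitochondrial glycerol-3-phosphate dehydrogenase gene, had 11.6 and 4.62 FPKM at 4 °C and 4.78 and 1.01 at 29 °C. Calu had no window in the 4 °C list, whereas Noct had 6.

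Among the 64 members that reached both limits at 4 °C, 15 were lower and 49 not lower. The one with the highest 4 °C value was in intron 1 of 2 of Klf15, a Kruppel-like factor gene of metabolic control. It had 12.8 FPKM for HA-RevErba and 2.96 for WT at 4 °C, a fold of 4.33, and 4.78 and 0.61 at 29 °C. Timp3, a metalloproteinase inhibitor gene, had 12.4 and 2.77 FPKM at 4 °C in one window, while a second Timp3 window was lower, with 6.18 FPKM for HA-RevErba at 29 °C and 3.15 at 4 °C. The chemokine gene Ccl4 had 11.9 and 2.96, and no window in the 4 °C list. Of these 64 windows, 18 had a 4 °C window within 1 kb. Any further criterion that kept such windows off the 4 °C list is not given in the sources at hand.

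The lower windows lay farther from other 4 °C sites than the not lower ones by the median, a difference that was not tested. The nearest 4 °C window was a median of 19.5 kb away (centre to centre), 29.3 kb for lower and 15.3 kb for not lower windows. For shared windows the next 4 °C window, apart from the overlapping one, was 12.5 kb away. A 4 °C window lay within 10 kb of 175 members (34.1%, 30.0 to 38.4), namely of 26.2% of lower (20.6 to 32.4) and 40.5% of not lower ones (34.7 to 46.5), and of 46.0% of shared windows. Distance beyond overlap was not used to choose the members, but the intervals treat windows as independent, which neighbours are not.

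**Figure D3:**
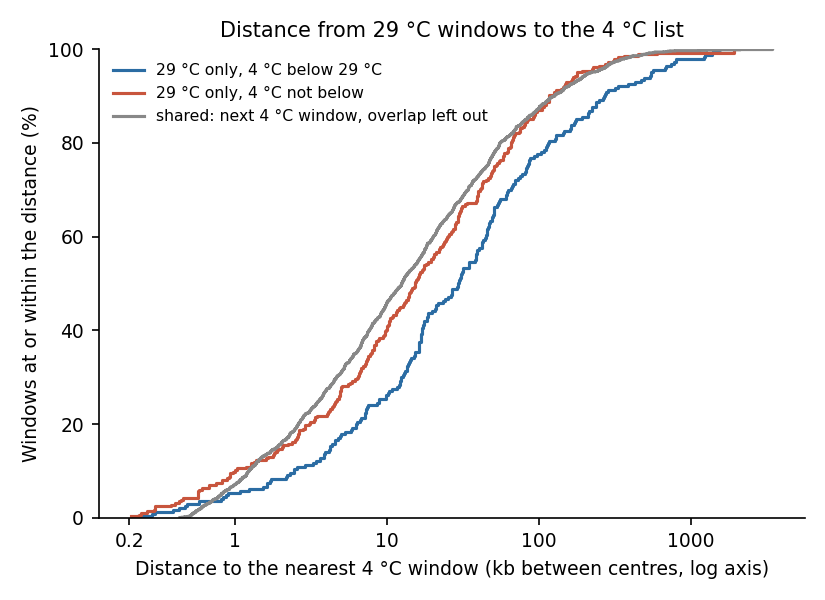
Share of windows (%) with a 4 °C window at or within the distance on the x axis (kb between centres, log axis). The lower class is under the other curves over most of the range, with 26.2% within 10 kb against 40.5% of the not lower class and 46.0% of shared windows.

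For 41 members a 4 °C window lay within 1 kb, 8 of these neighbours being shared and 33 listed at 4 °C only. At 4 °C the neighbour held more HA-RevErba than the member in 34 of the 41 pairs, with medians of 8.71 and 5.97 FPKM. At 29 °C it held more in 11, with medians of 3.30 and 4.37 FPKM. Each list placed its window on its own signal, so a higher value of each list's own window is built into the pairs. At Edn2, the endothelin 2 gene, the member had 6.42 FPKM at 29 °C and 6.44 at 4 °C, and the 4 °C window 234 bp away had 3.30 and 10.6. At Mark2, a polarity kinase gene, the centres were 229 bp apart, and the member had 7.08 and 6.83 FPKM against 4.53 and 8.71 in the neighbour. On the other side of the overlap rule, the shared windows with the least overlap were those of B3gat1 with 2 bp, Mir8118 with 5 bp and Rnase10 with 7 bp, where the median was 186 bp.

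Most members lay in introns or between genes, at shares close to those of the other windows. Introns held 45.8% of members, 48.7% of shared windows and 47.7% of windows listed at 4 °C only, and intergenic stretches 46.6%, 45.4% and 44.1%. Promoters held 19 members, or 3.70% (2.24 to 5.72), against 2.75% and 4.01%. The remaining members lay in 3′ UTRs (7), at transcript ends (6), in exons (4) and in non-coding transcripts (3). Beyond 100 kb of the start site lay 23.6% of lower windows (18.2 to 29.6) and 13.4% of not lower ones (9.65 to 17.9), with 17.4% for shared windows. Nearer to the start site the intervals of the classes overlapped widely. Within 10 kb lay 23.1% of lower (17.8 to 29.2) and 27.5% of not lower windows (22.4 to 33.05), and within 1 kb 5.68% and 5.28%. All 5 members on chromosome X, which held 26 windows of the 29 °C list, were lower, where 44.6% of all members were. Nothing is read from 5 windows.

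**Figure D4:**
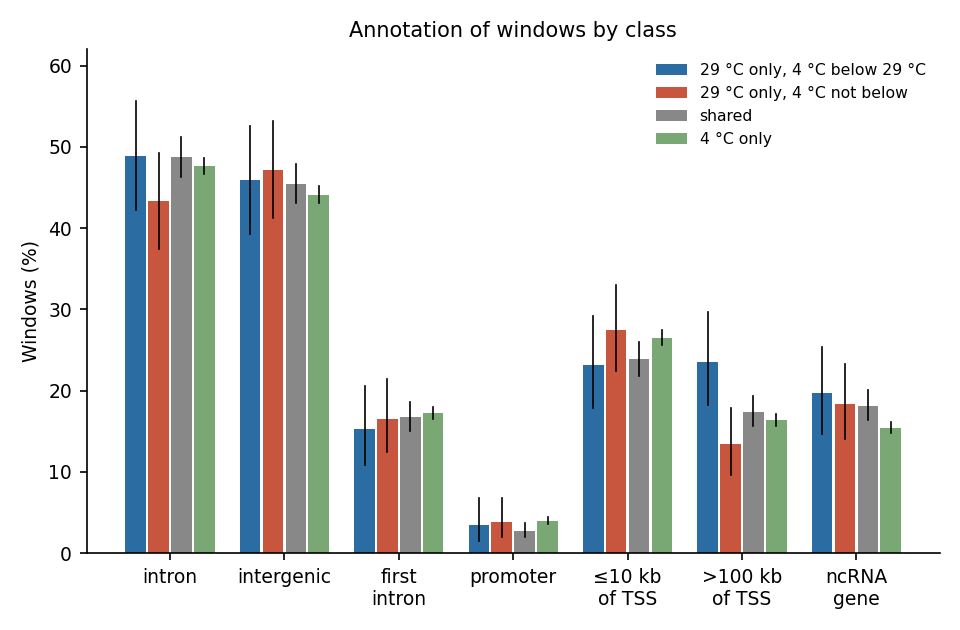
Share of windows (%) in annotation classes, within 10 kb or beyond 100 kb of the start site (TSS), and beside noncoding RNA genes, for both classes of members, shared windows and windows listed at 4 °C only; bars are shares and lines exact 95% binomial intervals. Introns and intergenic stretches each hold 43.3 to 48.9% of windows in every class. Windows beyond 100 kb are 23.6% of the lower and 13.4% of the not lower class, and windows within 10 kb are 23.1% and 27.5%.

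The 19 promoter members were 8 lower and 11 not lower windows, with a median ratio of 1.30, and 10 of them missed the fold limit alone. Depp1, a FOXO-responsive gene whose promoter sequence is given above, had 16.01 FPKM for HA-RevErba and 4.43 for WT at 4 °C, and 5.93 and 1.21 at 29 °C. The promoter window of the interferon-inducible GTPase gene Gbp7 had 9.73 and 3.14 FPKM at 4 °C and 5.52 and 0.61 at 29 °C. Both stayed under the fold of 4 at 4 °C. Gbp3, of the same family and the same gene cluster, had 4.71 and 1.85 FPKM at 4 °C and 5.36 and 0.61 at 29 °C.

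Efnb1, which encodes the membrane-bound ligand ephrin-B1, had 4.64 FPKM for HA-RevErba and 1.67 for WT at 4 °C, and 4.94 and 0.81 at 29 °C. The intervals of the ratios at Gbp3 (0.609 to 1.27) and Efnb1 (0.643 to 1.37) included 1. The promoter window of Mir6540, a microRNA gene, had a ratio below 1 beyond counting error, with 5.68 FPKM at 29 °C and 2.13 at 4 °C (0.373, 0.230 to 0.590). Arap1, a GTPase-activating protein gene, had 7.25 and 5.26 FPKM with an interval of 0.520 to 1.01, and Pelo, a ribosome rescue gene, 7.25 and 9.42 with 0.979 to 1.73.

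The 513 windows were annotated to 465 genes, and 423 of these had a single member window. Most members lay beside a gene that had a 4 °C window elsewhere: 361 windows, or 70.4% (66.2 to 74.3), with 70.3% in the lower and 70.4% in the not lower class. The same share was not computed for other windows, so whether it is high or low cannot be said. At these 361, the gene's strongest 4 °C window had a median ratio of 2.60, and it exceeded 1 for 354. Over all 5451 genes with a 4 °C window, the strongest one had a median ratio of 3.04 and exceeded 1 at 98.7%, so ratios above 1 are the rule in that list and nothing is read from them here. The strongest window held more HA-RevErba at 4 °C than the member in all 161 lower cases and in 161 of the 200 not lower cases. It was taken as the gene's highest value in the 4 °C list, and members are off that list. These counts are therefore largely built in, and nothing is read from them. The remaining 138 genes, 109 of them protein-coding, had no window in the 4 °C list.

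Of the 42 genes with several member windows, 16 had only lower ones, 10 only not lower ones and 16 both. No expected split was computed, so nothing is read from these counts. Cdca2 shows the range, its intronic window having a ratio of 0.177 (0.0899 to 0.323) and its intergenic one 2.14 (1.54 to 3.002). The noncoding RNA gene 4933416E03Rik had 5 windows, all lower, with ratios from 0.262 to 0.931. The intervals at ratios of 0.262 (0.173 to 0.388) and 0.559 (0.3765 to 0.822) lay below 1. Those at 0.815 (0.540 to 1.225) and 0.878 (0.604 to 1.27) included 1. Marcks, which encodes a membrane-bound substrate of protein kinase C, had 3 lower windows with ratios of 0.636, 0.729 and 0.792. The interval of the first (0.420 to 0.954) lay below 1 and that of the last (0.531 to 1.18) included it. The strongest 4 °C window of Marcks had 24.1 FPKM at 4 °C and 21.0 at 29 °C. Lctl, a lactase-like gene with no 4 °C window, had 3 lower windows from 0.378 to 0.902, and Gm20740 had 1 lower and 2 not lower windows.

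Gene lists for clock, metabolic and cell type functions, 20 lists with 390 genes, held 23 genes with 25 member windows. Of these windows 16 were lower and 9 not lower, with a median ratio of 0.900 against 1.09 over all members, of which 44.6% were lower. The lists were chosen with earlier results of these data known, so nothing is read from this difference. No member was annotated to a gene of the core clock list (5 of 24 genes had a 29 °C window), of the cholesterol list (1 of 19) or of the triglyceride list (5 of 22). None lay at markers of macrophages (2 of 13), skeletal muscle (0 of 13) or smooth muscle (1 of 11). With so few genes with a 29 °C window in these groups, and 23.5% of the 29 °C list as members, nothing is read from the absence. A 4 °C window existed elsewhere for 327 of all 465 genes with a member, and for 22 of the 23 genes in the lists. The exception was Mtr, the methionine synthase gene of one-carbon metabolism, with windows of 6.01 and 3.79 FPKM at 29 °C and 2.99 and 1.58 at 4 °C.

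Lipid synthesis and uptake genes had 3 members. The Thrsp window, in the intron of this lipogenic response gene, had 7.41 FPKM for HA-RevErba and 1.01 for WT at 29 °C, and 11.0 and 3.88 at 4 °C. Gpihbp1, whose product anchors lipoprotein lipase on capillaries, had a promoter window with 3.71 and 0.61 FPKM at 29 °C and 10.6 and 3.33 at 4 °C, which gave a ratio of 2.86 (2.03 to 4.103). Both missed the 4 °C list by the fold alone. The window 40.4 kb upstream of the desaturase gene Scd1 had 4.12 FPKM at 29 °C and 3.85 at 4 °C, and the interval of its ratio, 0.617 to 1.41, included 1.

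The members at thermogenesis genes were lower, at 2 of the 31 genes of that list, and 8 of the 31 had a 29 °C window. With 44.6% of all members lower, nothing is read from 2 windows. Adrb1, the beta-1 adrenergic receptor gene, had a window with 3.63 FPKM for HA-RevErba and 0.61 for WT at 29 °C and 1.03 and 0.93 at 4 °C, which gave a ratio of 0.282 (0.139 to 0.533). Thrb, a thyroid hormone receptor gene, had 3.46 and 0.21 FPKM at 29 °C and 1.74 and 0.38 at 4 °C (0.499, 0.284 to 0.856). Their strongest 4 °C windows had 12.6 and 12.7 FPKM at 4 °C and 2.56 and 2.48 at 29 °C. At the alpha-1A adrenergic receptor gene Adra1a the member was not lower, with 4.86 FPKM at 29 °C and 7.77 at 4 °C.

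Among transcription factors and cofactors, values lay on both sides. Tle3, a corepressor gene, had 4.37 FPKM at 29 °C and 1.19 at 4 °C (0.270, 0.141 to 0.486), and Nrf1, a factor for respiratory chain genes, 3.46 and 0.79 (0.227, 0.102 to 0.460). Nfia, a brown fat lineage factor gene, had 7.58 and 6.05 FPKM with an interval of 0.582 to 1.09. Foxo1 had 5.44 and 6.13 FPKM and Ppard, a fatty acid-sensing receptor gene, 5.77 and 4.79, with intervals that included 1.

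Esr1, the estrogen receptor alpha gene, had 4.37 FPKM at 29 °C and 3.93 at 4 °C, with an interval of 0.599 to 1.35. At the promoter of Zbtb16, a zinc finger repressor gene, the member had 43 HA-RevErba reads at each temperature, or 3.55 FPKM at 29 °C and 3.38 at 4 °C. The strongest Zbtb16 window, 89.3 kb from the start site, had 51.9 and 53.7 FPKM, and was close to even between temperatures as well.

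Pkm, the pyruvate kinase gene of glycolysis, had 5.60 FPKM at 29 °C and 8.71 at 4 °C, with a 4 °C window 0.567 kb away. Cell type markers with a member were Lep (3.46 FPKM at 29 °C and 3.70 at 4 °C) and Nnat (3.96 and 3.70) for white adipocytes. For endothelium they were Cdh5 (4.70 and 3.30) and Sox18 (3.88 and 6.52), and for nerve cells Ntrk2, given above. Only the Sox18 interval (1.16 to 2.46) and that of Ntrk2 excluded 1, in opposite directions. In bulk tissue, more binding per cell and more cells of a type cannot be told apart, and with 1 to 4 genes per list these values describe single windows, not lists.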

How the data were processed

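Groups came from sample titles and characteristics. The submitters' processing notes name Bowtie2 2.1.0, HOMER 4.10 and build mm9 but not their roles; settings of the peak caller are not given in the sources at hand. Per the file headers, the authors made 1 peak list per temperature on pooled libraries, with FPKM of 4 pools. The deposited score was not used further, and the deposited difference columns equal HA-RevErba minus WT FPKM. The authors' aligner logs gave read counts and percent aligned per library. After 0.01 was taken off, each deposited FPKM fell on a multiple of its pool's smallest step (100% within 0.01 FPKM), and these multiples are the reads per window. In WT pools 3 reads equal 0.553 (4 °C) and 0.598 (29 °C) FPKM. Without molecular identifiers, reads may be copies of 1 molecule.

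Ratios were computed from reads and pool totals, and their 95% intervals are exact (Clopper-Pearson) (Python 3.11.15, numpy 2.4.6, pandas 2.3.3, scipy 1.17.1, matplotlib 3.10.9); the interval code was tested on simulated data. The base of the coordinates (0 or 1) is not stated. The gene table (GRCm38.p6) served for names only, and all 465 gene IDs matched. Members, gene lists and motifs were chosen with earlier results of these data known. Windows were named by 9 rules: the 8 strongest at 29 °C per class, extreme and near-even ratios, up to 8 promoters, members of gene lists, genes with 3 or more windows, closest 4 °C windows and smallest overlaps, and up to 6 each by both limits reached, HA-RevErba not above WT, and highest WT at 4 °C. Not every named window is printed, and some list members are not reported here. The alternatives changed overlap, scaling, pseudocount, limits and distance.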

Additional observations from a re-analysis of the deposited data

How the results depend on the processing

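Of 18 alternatives for 7 results, 8 changed the value little, 9 moved it and 1 turned its direction. The turn came from scaling: with WT reads made equal over shared windows (a factor of 1.49), the median ratio was 0.731 and 69.4% of members (356) were lower. With WT reads equal over all 4 °C windows (1.02) the median ratio was 1.07 and 236 were lower. Taking HA-RevErba minus WT, 60.8% were lower. Asking for 4 FPKM over WT and 5 times WT at 29 °C left 175 windows, 56.6% of them lower. Limits of 2 FPKM and 3 times WT at 4 °C were reached by 259 members, and limits of 4 FPKM and 5 times WT by 17, which follows from how strict they are. A 4 °C window lay within 5 kb of 23.4% and within 50 kb of 70.0%, which follows from the distance allowed. With members and 4 °C windows kept to 50 kb from the start site, 61.6% of 336 members were beside a gene with a 4 °C window; the cause was not tested.

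Leaving out replicates was not possible, since the binding values are of pooled libraries. No paired analysis was possible because the deposited binding values are of pools and carry no replicate number. Depth limits single windows: 60.4% of members rested on 3 or fewer WT reads at 29 °C.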
